A study of Mus musculus with 20 samples.

Results

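Mouse embryos at the 1-cell and the 2-cell stage were compared on 8 arrays, 4 titled 1-Cell and 4 titled 2-Cell, out of 20 arrays of 5 stages in the whole series. The other 12 arrays hold oocytes, 8-cell embryos and blastocysts. They entered into the added constant, the intensity filter, the choice of probe set per gene, the estimate of the spread and the course of single genes. Arrays were assigned to a stage by their titles, and the measure was the difference, 2-cell minus 1-cell, of log2 intensity for every probe set that is no array control. A probe set is a group of short probes that read 1 transcript, and 22626 of the 22690 on the MOE430A array qualified. Per the labels, each array carries total RNA that went through 2 rounds of amplification by in vitro transcription. The labels give no strain, sex, number of embryos per array, hour of collection or culture condition, and no stage has a treatment or a genotype of its own. Nothing in them says that the replicates came from separate collections. The p-values therefore reflect the spread among these arrays alone, part of which can be technical, and their precision is limited by there being 4 arrays per stage.

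The fertilised mouse egg starts with RNA made in the growing oocyte and has little transcription of its own. As background, a minor wave of transcription begins late in the 1-cell embryo and the major wave of zygotic genome activation follows in the 2-cell embryo, while much of the maternal RNA is degraded. Many maternal RNAs are also stored with short poly(A) tails and gain or lose them around fertilisation. New transcription, RNA decay and a change of the poly(A) tail cannot be told apart in these intensities. Because the deposited arrays share nearly 1 trimmed mean, a value is also a share of the signal of its array, so in such bulk samples fewer cells of a type and less RNA per cell cannot be told apart.

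The 4 arrays of each stage resembled each other. Pairwise correlations across probe sets, which are not independent replicates, were 0.931 to 0.962 within the 1-cell stage, 0.941 to 0.96 within the 2-cell stage and 0.681 to 0.788 between them, and no array stood apart from its stage. The egg genes Gdf9, Zp3 and Dppa3 were bright on the 1-cell arrays, with mean intensities of 9208, 1176 and 5661. Median intensity was 48.5 ± 4.94 on the 1-cell arrays and 53.1 ± 2.48 on the 2-cell arrays (SD, n = 4 each; exact permutation test, two-sided, p = 0.143). The 3′ to 5′ signal ratio of beta-actin, a sign of RNA length after amplification, was 4.24 ± 1.20 and 4.63 ± 0.622 (exact permutation p = 0.6), and that of Gapdh was 4.76 ± 1.08 and 5.43 ± 0.603 (exact permutation p = 0.343). One control did differ. The 18S ribosomal RNA control probes for the middle of the molecule read 11010 to 15360 on the 1-cell arrays and 482 to 745 on the 2-cell arrays, with exact permutation p = 0.0286, the smallest that 4 against 4 arrays can give. On the oocyte arrays the same probes read 143 to 261. The 18S signal therefore moved with the stage, and its part in the differences below was not tested.

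Nearly as many transcripts rose as fell between both stages, but the rises were larger. Of 17193 probe sets tested, 3993 were called higher at the 2-cell stage (23.2%) and 3700 lower (21.5%) by limma's moderated two-sided test, with p-values adjusted after Benjamini and Hochberg and a threshold of 0.05. Taking 1 probe set for each of 10251 genes, 2255 genes (22%) were higher and 2330 (22.7%) lower, and these shares are the background for all counts of gene groups below. Differences are given on the scale log2(intensity + 12.15), which shrinks the change of dim genes. The rise exceeded 2 on that scale in 635 genes and 4 in 96 genes, whereas 252 genes fell by more than 2 and 6 by more than 4. Of the 96 genes with the largest rises, 48 had all 4 1-cell values at or under 33, the intensity filter. Among the 635 genes that rose by more than 2, 203 (32%) had all 4 1-cell values there. Of the 252 genes that fell by more than 2, 21 (8.33%) had all 4 2-cell values there. Over all probe sets on the array, 676 went from under that level on all 4 1-cell arrays to above it on all 4 2-cell arrays, and 163 went the other way.

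The balance of rises and falls depends on the scaling. On the deposited scale 51.9% of the calls were rises and the median difference of all tested probe sets was -0.04. Scaled to the added hybridization controls, the median was 0.13 and 66.3% of 5534 calls were rises (3670 against 1864). The mean log2 signal of these controls was 9.789 ± 0.399 at the earlier and 9.571 ± 0.447 at the later stage (SD). That difference was smaller than the spread within either stage (exact permutation test, p = 0.486), so this scaling also brings the spread of the controls into the values. Quantile normalization and median centring gave medians of -0.13 and -0.15, with rises at 46.3% and 44.7% of the calls. Small differences should therefore be read relative to that shift. The gene lists below lost mainly falls when scaled to the hybridization controls, where 5 of 74 oxidative phosphorylation genes, 3 of 39 chaperones, 10 of 103 transcription machinery genes, 15 of 79 splicing factors and 6 of 44 translation factors were called lower. The part of the spread of the controls in these and all later counts under that scaling was not tested.

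**Figure D1:**
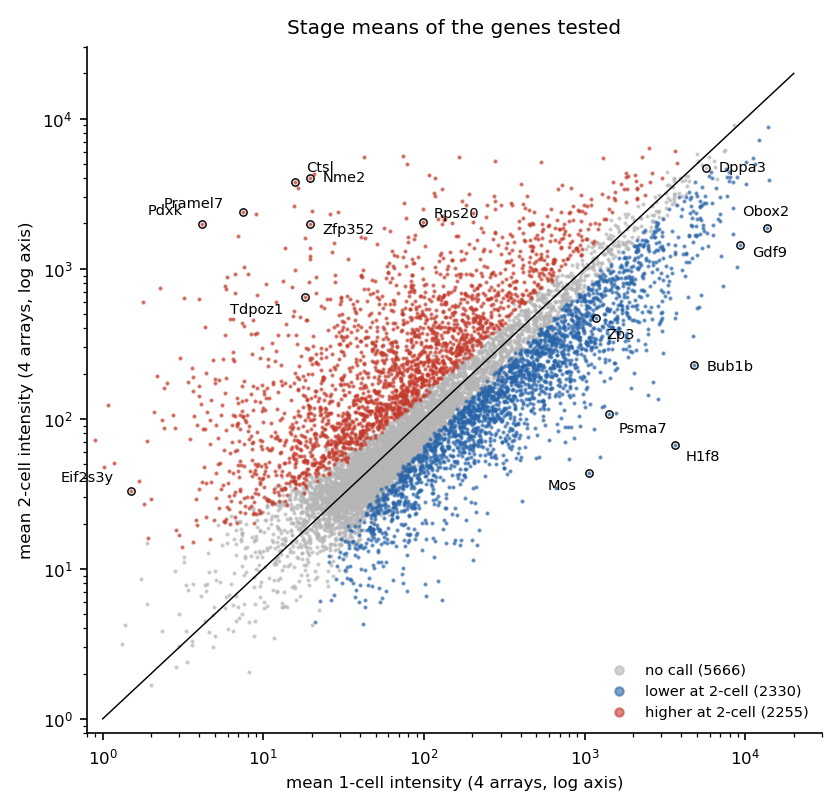
Mean intensity of each tested gene on the 4 1-cell arrays (horizontal) and the 4 2-cell arrays (vertical), both on log axes, with 2255 genes called higher in red, 2330 called lower in blue and 5666 without a call in grey; the line marks equal means. The red points spread farther from the line at low 1-cell intensity than the blue points do, and named genes are ringed.

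**Figure D2:**
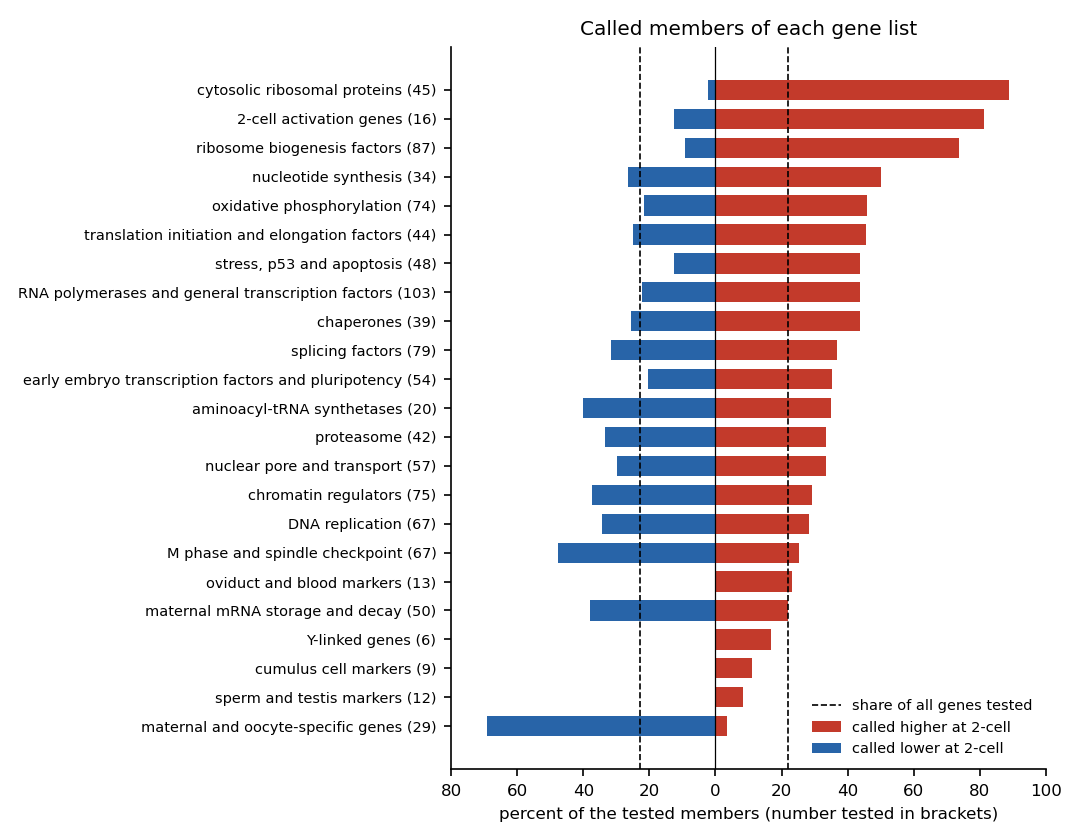
Percent of the tested members of each gene list called higher (red, right) and called lower (blue, left) at the 2-cell stage, for lists with at least 6 tested members; dashed lines mark the shares over all genes tested, 22% and 22.7%. Ribosomal proteins, 2-cell activation genes and ribosome biogenesis factors lie farthest to the right, and maternal genes farthest to the left.

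Genes known for a burst of expression in the 2-cell embryo were the first group examined. Such activation genes include zinc finger genes, BTB domain genes and homeobox genes, many of which lie next to or within repeated elements. For Zfp352 and Tdpoz1 the promoter windows are printed here together with that of the heat shock gene Hspa1b, because they differ in base composition. The windows come from RefSeq tables on GRCm38.p6 and run from 250 bases before to 50 after the annotated start: chr4:90218570-90218869 on the plus strand for Zfp352, chr3:93676234-93676533 on the minus strand for Tdpoz1 and chr17:34959189-34959488 on the minus strand for Hspa1b. They were chosen after the values of their genes were seen. Capitals mark TAATCC (the core bound by bicoid-type homeodomain proteins), CCAAT (the CCAAT box), GGGCGG (the GC box) and TATAAA, each searched on both strands; a match on the minus strand appears as the reverse complement.
Zfp352: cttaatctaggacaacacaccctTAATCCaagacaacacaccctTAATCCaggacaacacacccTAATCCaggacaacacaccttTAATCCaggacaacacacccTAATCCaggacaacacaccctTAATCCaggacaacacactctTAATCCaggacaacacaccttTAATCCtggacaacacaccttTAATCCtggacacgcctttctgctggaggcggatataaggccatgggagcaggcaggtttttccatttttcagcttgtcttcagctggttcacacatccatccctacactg
Tdpoz1: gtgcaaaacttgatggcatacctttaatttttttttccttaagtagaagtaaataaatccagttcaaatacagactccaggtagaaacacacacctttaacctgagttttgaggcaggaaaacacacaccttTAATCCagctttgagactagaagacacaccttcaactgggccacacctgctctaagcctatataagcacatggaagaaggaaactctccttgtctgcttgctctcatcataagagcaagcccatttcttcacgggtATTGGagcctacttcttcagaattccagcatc
Hspa1b: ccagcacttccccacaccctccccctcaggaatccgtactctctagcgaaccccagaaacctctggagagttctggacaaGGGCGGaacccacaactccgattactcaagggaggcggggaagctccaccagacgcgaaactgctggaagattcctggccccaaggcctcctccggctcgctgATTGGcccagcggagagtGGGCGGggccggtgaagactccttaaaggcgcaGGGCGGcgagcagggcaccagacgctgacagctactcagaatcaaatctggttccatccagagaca
The Zfp352 window holds TAATCC 9 times, from 227 to 61 bases before the start at spacings of 20 or 21 bases, within a repeated unit. It is the only window of 32851 in the table with 5 or more copies, and 7.06% of the windows hold at least 1. Tdpoz1 has 1 copy and, after the start, 1 CCAAT box. Hspa1b has 3 GC boxes and 1 CCAAT box, motifs that 35.7% and 37.4% of all windows contain. The observed over expected CpG ratio was 0.142 in the Zfp352 and 0.081 in the Tdpoz1 window, against 0.577 for Hspa1b and a median of 0.72 over the windows of tested genes. A match describes these letters only.

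Of 47 listed 2-cell activation genes, 17 are on the array and 16 were tested, and 13 of these rose, 2 fell and 1 had no call; the median difference was 2.55, against -0.07 over all genes tested. Members such as the Zscan4 genes have no probe set here, so the count describes only the part of the list that the array holds. Genes that are low at most stages pass the filter only where they are high, which favours members that change. Zfp352, a zinc finger gene, read 24.5, 11.7, 26.4 and 15.8 on the 1-cell arrays and 2417, 2063, 1529.7 and 1968 on the 2-cell arrays. All 4 2-cell values lay far above the 1-cell values, and the difference was 5.99 ± 0.28 (SE, 4 arrays per stage; adjusted p = 6.87e-16). Its second probe set rose by 6.35. Zscan5b, a SCAN domain zinc finger gene, read 76.8, 67, 54.4 and 48.5 on the 1-cell arrays and 1467, 1828, 1581 and 2215 on the 2-cell arrays, without overlap, and rose by 4.59 ± 0.22. Tdpoz1, of the BTB and TRAF domain family, read 25.1, 36.2, 4.1 and 7 on the 1-cell arrays and 710.1, 782, 486 and 615 on the 2-cell arrays. Its 1-cell values varied several-fold at the floor of the array, all below the lowest 2-cell value, and the difference was 4.57 ± 0.28 (adjusted p = 2.02e-13).

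Transcripts named for their 2-cell expression differed in size. Tcstv3 read 69.8, 69.3, 80 and 107 on the 1-cell arrays and 855, 511, 279 and 506 on the 2-cell arrays and rose by 2.47 ± 0.28 without overlap. For its relative Tcstv1 the values were 177, 140.4, 182 and 189 on the 1-cell arrays and 622, 341, 169 and 297 on the 2-cell arrays. The third 2-cell array lay within the 1-cell range, so the groups overlapped although the difference of 0.87 ± 0.28 was called (adjusted p = 0.0117). Usp17la, a deubiquitinase gene, rose by 2.59 ± 0.26, Sp110 by 2.61 ± 0.20 and AF067061, whose probe set may be shared with other transcripts, by 2.50 ± 0.32, all without overlap. For Usp17la and AF067061 the 2-cell arrays 1 and 2 read higher than arrays 3 and 4, and for Sp110 they read lower. Arg2, an arginase gene on the same list, fell by 1.32 ± 0.21, from 689.7, 878, 1038 and 1342 to 494, 425, 311 and 307.

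The homeobox members moved in opposite directions. Obox2, an oocyte-specific homeobox gene, read 16486, 13991, 12591 and 11372 on the 1-cell arrays and 2969, 1400, 1420 and 1627 on the 2-cell arrays, and its probe set may also bind other Obox transcripts. Every 2-cell value was far below every 1-cell value, the first 2-cell array being the highest of its stage, and the difference was -2.93 ± 0.22 (adjusted p = 8.11e-12). Obox3, of the same family, read 111, 100.5, 72.8 and 51.4 on the 1-cell arrays and 993, 1017, 744 and 898 on the 2-cell arrays and rose by 3.30 ± 0.25 without overlap. Crxos, a homeobox gene on the strand opposite Crx, read 7.4, 8, 7.2 and 39.9 on the 1-cell arrays and 2189.8, 2139.8, 3575 and 2524 on the 2-cell arrays. The fourth 1-cell array was well above the other 3 of its stage but still far below the 2-cell arrays, and the difference was 6.67 ± 0.27. The second Crxos probe set rose by 2.21. At the 8-cell stage the mean intensity was 46.2 for Zfp352, 43.6 for Tdpoz1 and 32.2 for Obox3, but 10880 for Crxos.

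Heat shock and translation factor genes are among the earliest transcripts of the activated genome. Hspa1b, an inducible Hsp70 chaperone, read 85.3, 56.1, 108 and 87.7 on the 1-cell arrays and 1081, 964, 786 and 795 on the 2-cell arrays. The groups did not overlap, and the difference was 3.27 ± 0.42 (adjusted p = 2.36e-07). Hspa1a, its neighbouring copy, rose by 2.33 ± 0.34, and the signals of such near-identical genes may not be separate. Eif1a, a translation initiation factor gene, depended on the probe set. The one with the higher mean over all 20 arrays read 64, 65.5, 48.3 and 43.4 on the 1-cell arrays and 96.1, 94.4, 70.5 and 104 on the 2-cell arrays, a difference of 0.62 ± 0.22 (adjusted p = 0.0203) that was no longer called when scaled to the hybridization controls (0.79; adjusted p = 0.0648). Leaving out 1-cell array 3, 1-cell array 4 or 2-cell array 4 also ended it, with adjusted p from 0.0529 to 0.0652. The other read 1.4, 1.6, 6.8 and 3.8 on the 1-cell arrays and 229.6, 297.9, 312.1 and 223.7 on the 2-cell arrays, a difference of 4.16. Eif1ax, the X-linked relative, had a difference of 0.22 ± 0.19 and no call (adjusted p = 0.393).

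**Figure D3:**
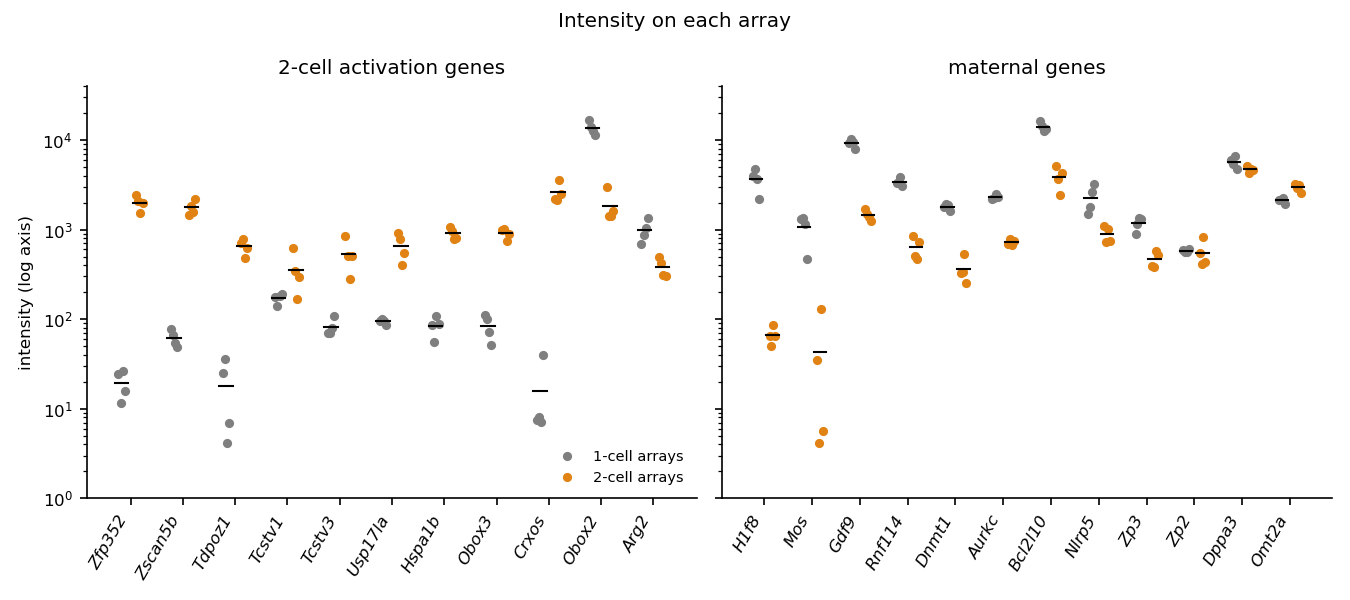
Intensity on each array (log axis) for 11 genes of the 2-cell activation list and 12 maternal genes; grey points are the 4 1-cell arrays, orange points the 4 2-cell arrays, and black bars the means. Zfp352, Zscan5b, Tdpoz1 and Crxos separate most widely among the activation genes, Tcstv1 overlaps, and among maternal genes H1f8 and Mos fall farthest while Dppa3 and Zp2 overlap.

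Genes of the Y chromosome cannot come from the oocyte, since a Y chromosome enters only with the sperm. Of 12 listed, 7 are on the array and 6 were tested; 1 rose and 0 fell by limma (1 and 0 at an unadjusted p under 0.05), a share near the background. Eif2s3y, a translation initiation factor gene, read 0.4, 2, 2.8 and 0.8 on the 1-cell arrays and 16.5, 39.9, 45.5 and 30.5 on the 2-cell arrays. All 1-cell values were at the floor of the array and all 2-cell values were higher, and the difference was 1.68 ± 0.27 (adjusted p = 7.62e-06); oocyte arrays averaged 1.43. Kdm5d, a histone demethylase gene, read 49.5, 42.8, 46.4 and 34.4 on the 1-cell arrays and 30.3, 31, 21.8 and 33.4 on the 2-cell arrays, a difference of -0.43 ± 0.26 without a call (adjusted p = 0.199). Its oocyte mean was 44.4, although oocytes carry no Y chromosome. The other tested members, Uty, Sry, Usp9y and Uba1y, had differences from 0.03 to 0.34 and no call.

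Xist, the RNA that coats the inactive X chromosome, is transcribed from the paternal X in early female embryos. Its brightest probe set read 108, 73.9, 46.5 and 120.4 on the 1-cell arrays and 208, 247, 220.5 and 245 on the 2-cell arrays. The 2-cell values were all higher and close together, and the difference was 1.35 ± 0.25 (adjusted p = 5.49e-05). This probe set alone, 1 of 3, carried the call, the others differed by 0.3 and -0.1, and the mean over all tested probe sets gave 0.51 without a call (adjusted p = 0.0962). Rlim, an X-linked activator of Xist, had a difference of -0.09 ± 0.18 (adjusted p = 0.734). Of the 313 tested genes on the X chromosome, 25.9% were higher and 20.8% lower, near the shares over all genes.

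The largest rises over the whole array are given next, beyond those of Zfp352 and Crxos above. Ctsl, a lysosomal protease gene, read 14.7, 22.7, 13.6 and 12.3 on the 1-cell arrays and 3183, 3467, 4517 and 3969.8 on the 2-cell arrays, and its difference of 7.09 ± 0.19 (adjusted p = 1.22e-20) was the largest of all tested genes. Values at the 1-cell stage were at the floor and the groups were far apart. Nme2, a nucleoside diphosphate kinase gene, read 19, 16.5, 21.3 and 21.5 on the 1-cell arrays and 2932, 3786, 5899.7 and 3487 on the 2-cell arrays, with the third 2-cell array the highest, and rose by 6.94 ± 0.20. Pdxk, the kinase that activates vitamin B6, read 2.6, 5.3, 4.7 and 3.9 on the 1-cell arrays and 1249, 1699, 3048 and 1985 on the 2-cell arrays. The 2-cell arrays varied by more than 2-fold among themselves, yet none came near the 1-cell values, and the rise was 6.87 ± 0.25. All 3 Pdxk probe sets were called higher, with differences from 3.42 to 6.87. Tomm20, a receptor of the mitochondrial import pore, read 32.1, 55.6, 33.9 and 47.4 on the 1-cell arrays and 4966, 5458, 6935 and 4883 on the 2-cell arrays and rose by 6.69 ± 0.17. All 5 of its probe sets were called higher, with differences from 2.47 to 6.69. Prps1, which makes the sugar phosphate for nucleotides, read 32.9, 32.7, 8.8 and 5.9 on the 1-cell arrays and 2277, 2205, 2834 and 2326 on the 2-cell arrays and rose by 6.35 ± 0.27.

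Selenos, a selenoprotein of the endoplasmic reticulum, rose by 6.96 ± 0.19, Gcsh, of the mitochondrial glycine cleavage system, by 6.07 ± 0.22, and Ctsc, a second lysosomal protease, by 5.92 ± 0.23. Guca1a, known as a calcium-binding activator of guanylate cyclase in photoreceptors, read 6.3, 3.8, 11.6 and 6 on the 1-cell arrays and 1569, 1447, 1569.9 and 1991 on the 2-cell arrays and rose by 6.44 ± 0.20. Its 4 2-cell values lay close together and the gene has 1 probe set. Pramel7, of the Prame-like family expressed in embryos and stem cells, read 8.9, 7.3, 6.6 and 7.1 on the 1-cell arrays and 1835, 2275, 2983 and 2433 on the 2-cell arrays, a rise of 6.91 ± 0.15 (adjusted p = 1.43e-22). Pramel6, its neighbour in that family, rose by 5.63 ± 0.23. Other transcripts may share the probe sets of Pramel7 and Pramel6 used here, and the second probe sets of these genes rose by 3.74 and 2.69. By the 8-cell stage the mean intensities of Ctsl, Nme2, Pdxk, Tomm20 and Pramel7 were 4584, 11910, 5838, 9097 and 4883, whereas Guca1a stood at 545.

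Maternal genes were mostly lower at the 2-cell stage. Of 56 listed maternal and oocyte-specific genes, 30 are on the array and 29 were tested; 20 fell (69%), 1 rose and 8 had no call, with a median difference of -1.19. The promoter windows of H1f8, the oocyte linker histone with the largest fall, and of Btg4, an adaptor of the CCR4-NOT deadenylase that remained far above the floor, are shown as a contrast, chosen after their values were seen. They lie at chr6:115944681-115944980 and chr9:51115751-51116050, both on the plus strand of GRCm38.p6, from the same RefSeq table.
H1f8: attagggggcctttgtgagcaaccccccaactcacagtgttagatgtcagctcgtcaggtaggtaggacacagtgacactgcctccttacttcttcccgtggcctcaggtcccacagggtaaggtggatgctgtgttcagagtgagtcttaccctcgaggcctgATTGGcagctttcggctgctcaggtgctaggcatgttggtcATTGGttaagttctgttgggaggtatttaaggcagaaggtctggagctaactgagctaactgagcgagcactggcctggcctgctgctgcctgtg
Btg4: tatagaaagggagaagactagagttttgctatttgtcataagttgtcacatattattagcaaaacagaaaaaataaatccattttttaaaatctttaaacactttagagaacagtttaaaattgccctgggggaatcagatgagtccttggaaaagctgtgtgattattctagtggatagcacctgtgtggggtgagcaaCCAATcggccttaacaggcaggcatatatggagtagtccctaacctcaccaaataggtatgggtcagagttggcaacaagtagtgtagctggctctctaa
The H1f8 window holds CCAAT 2 times, 86 and 45 bases before the start, and the Btg4 window holds it 1 time, 50 bases before. Both windows are poor in CpG, with observed over expected ratios of 0.226 and 0.091, and neither holds a GC box.

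H1f8 read 3995, 4699.5, 3682 and 2175 on the 1-cell arrays and 65.7, 50.4, 87.1 and 65 on the 2-cell arrays. The groups were far apart, with the fourth 1-cell array the lowest of its stage, and the difference was -5.49 ± 0.25 (adjusted p = 2e-16), a ratio of stage means of 54.3. Mos, a kinase of egg metaphase arrest, read 1296, 1339.8, 1155 and 470.4 on the 1-cell arrays and 35.2, 4.1, 129 and 5.7 on the 2-cell arrays. Its 2-cell values scattered upward from the floor, the fourth 1-cell array was again low, and it fell by 4.74 ± 0.42. Among the secreted factors of the oocyte, Gdf9 read 9185, 10272, 9541 and 7835 on the 1-cell arrays and 1685, 1484, 1379.8 and 1242 on the 2-cell arrays, tight within each stage, and fell by 2.66 ± 0.16. Bmp15, its partner, read 1032, 1210, 1328 and 1907 on the 1-cell arrays and 719, 601, 270.4 and 534 on the 2-cell arrays and fell by 1.39 ± 0.27 without overlap. Oosp1 fell by 0.76 ± 0.17.

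The zona pellucida genes encode the egg coat. Zp3 read 896, 1159.5, 1339 and 1311 on the 1-cell arrays and 392, 382, 579 and 519 on the 2-cell arrays, fell by 1.31 ± 0.18 and did not overlap. Its oocyte mean was 5489, so the larger drop came before the 1-cell stage. The zona genes had a median of -2.58 from oocyte to 1-cell and -1.19 from 1-cell to 2-cell. Zp1 fell by 1.19 ± 0.19, from 336, 277, 339 and 374 to 151, 121, 159.7 and 124. Zp2 read 593, 567, 558 and 611 on the 1-cell arrays and 551, 414, 816 and 434 on the 2-cell arrays; the third 2-cell array was the highest of all 8, and the difference of -0.12 ± 0.19 did not pass the test (adjusted p = 0.644). For the subcortical maternal complex, a protein lattice under the egg membrane that early cleavage needs, Tle6 fell by 2.18 ± 0.20 and Nlrp5 by 1.29 ± 0.21. The Nlrp5 values were 1487, 1801, 2633 and 3184 on the 1-cell arrays and 1098, 719, 1025 and 754 on the 2-cell arrays, without overlap but spread widely among the 1-cell arrays. Zbed3 fell by 1.46 ± 0.22.

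Not every maternal gene was called. Dppa3, a maternal-effect gene that protects the maternal genome from loss of DNA methylation, read 5932, 5338, 6581 and 4794 on the 1-cell arrays and 5186, 4309, 4680.1 and 4562 on the 2-cell arrays. The groups overlapped, the difference of -0.27 ± 0.17 did not pass the test (adjusted p = 0.22), and it turned to 0.19 under quantile normalization. Omt2b (difference -0.04 ± 0.19), Gpr3 (-0.01 ± 0.22) and Dnmt3l (0.08 ± 0.19) had no call either. Omt2a, an oocyte maturation transcript, was the 1 member called higher, by 0.48 ± 0.18 (adjusted p = 0.0285). It read 2163, 2155, 2258 and 1906 on the 1-cell arrays and 3245, 2891, 3178 and 2578 on the 2-cell arrays. The call was lost under several other settings, among them centring on the array median (0.37; adjusted p = 0.153) and leaving out the fourth 1-cell array (0.43; adjusted p = 0.0736), the first 2-cell array (0.44; adjusted p = 0.0701) or 2-cell array 3 (0.45; adjusted p = 0.0701). Other differences among the genes that fell were -2.41 for Rnf114, a ubiquitin ligase gene, -1.90 for Bcl2l10, -1.65 for Aurkc, the meiotic Aurora kinase, and -0.89 for Lhx8, an oocyte homeodomain factor.

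The deepest falls over the whole array after H1f8 and Mos are given next. Bub1b, the checkpoint kinase BubR1, read 4332, 6355, 4741 and 3706 on the 1-cell arrays and 227, 199, 318 and 174 on the 2-cell arrays and fell by 4.32 ± 0.21 (adjusted p = 9.78e-16). Crabp2, a carrier of retinoic acid, read 1063, 1082, 1353 and 1477 on the 1-cell arrays and 55.6, 58.1, 55.1 and 52.8 on the 2-cell arrays; the 2-cell values were almost identical and it fell by 4.20 ± 0.17. Txnip, an inhibitor of thioredoxin, read 2310.2, 2192, 2437 and 2963 on the 1-cell arrays and 147, 115, 122 and 194 on the 2-cell arrays and fell by 4.01 ± 0.37. None of these 3 genes overlapped between stages. Rgs2, which dampens G protein signalling and is made in the maturing egg, fell by 3.72 ± 0.22. Mtfr2 (-3.81 ± 0.22), the glutaredoxin gene Glrx (-3.69 ± 0.20) and the mitochondrial protease gene Oma1 (-3.58 ± 0.16) fell about as far. Itpr2, a calcium release channel gene, fell by 4.32 ± 0.28 on its brightest probe set, and this was 1 of 4 tested probe sets with the call.

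Genes that store, silence and degrade maternal RNA split in both directions: of 50 tested, 11 rose (22%, the background share) and 19 fell (38%), with a median of -0.08 that turned to 0.13 when scaled to the hybridization controls, where 11 fell. The storage and translational control factors leaned downward, with 7 of 13 falling and 2 rising (4 and 2 under that scaling). Cpeb1, which keeps and then releases dormant RNAs in the oocyte, read 717, 681, 826 and 772 on the 1-cell arrays and 95.8, 89.6, 84.8 and 81.9 on the 2-cell arrays and fell by 2.92 ± 0.16 (adjusted p = 1.11e-14). Dazl, a germ cell translation regulator, fell by 2.35 ± 0.24. Pabpc1, the general poly(A)-binding protein of somatic cells, went the other way and read 189, 116, 121 and 118 on the 1-cell arrays and 1680.1, 2028, 2509 and 2401 on the 2-cell arrays. The first 1-cell array was the highest of its stage, the groups did not overlap, and the rise was 3.88 ± 0.20. The second Pabpc1 probe set rose by 0.77. Among deadenylation factors, 7 of 18 fell and 2 rose (4 and 2 under that scaling). Btg4 read 11515, 12384, 10997 and 9899 on the 1-cell arrays and 7152, 5978, 3468 and 5282 on the 2-cell arrays, a difference of -1.08 ± 0.23 (adjusted p = 0.000384) that was no longer called under quantile normalization (-0.43; adjusted p = 0.177). Tob1, another deadenylase adaptor, read 8.9, 15.2, 21.9 and 18.2 on the 1-cell arrays and 348, 489.6, 285 and 315 on the 2-cell arrays and rose by 3.71 ± 0.26.

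Decapping factors and exonucleases changed in either direction, 7 of 19 up and 5 down (3 when scaled to the hybridization controls). Edc4, a scaffold of the decapping complex, read 1096, 1003, 1166 and 747 on the 1-cell arrays and 117, 96.9, 133 and 128 on the 2-cell arrays and fell by 2.94 ± 0.18, and Dcp1a, an activator of decapping, fell by 2.24 ± 0.23. Dis3, the catalytic nuclease of the exosome, read 14.1, 8.9, 38.2 and 43.3 on the 1-cell arrays and 485, 611, 786 and 641 on the 2-cell arrays. Its 1-cell values straddled the filter level, every 2-cell value was higher, and the rise was 4.17 ± 0.23 (adjusted p = 2.41e-14). The exosome subunits Exosc5 and Exosc2 rose by 1.76 ± 0.25 and 1.54 ± 0.34, while Exosc7 fell by 0.68 ± 0.17.

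The transcription machinery was counted by complex, and differences between complexes were not tested. Of 103 tested RNA polymerase and general transcription factor genes, 45 rose (43.7%) and 23 fell (22.3%), with a median of 0.37. RNA polymerases I and III, which make ribosomal and transfer RNA, had 10 of 13 subunits higher and 0 lower, with a median of 1.71. Polr1c, a subunit that both share, read 38.1, 40.1, 44.9 and 38.2 on the 1-cell arrays and 1193, 1582, 2378 and 1330.2 on the 2-cell arrays and rose by 4.91 ± 0.20 (adjusted p = 3.92e-17). Its 2-cell values varied, the third array being the highest, and the groups were far apart. Polr1e rose by 3.20 ± 0.19, Polr3g by 2.86 ± 0.21 and the largest subunit of polymerase I, Polr1a, by 2.73 ± 0.23. Of the 11 RNA polymerase II subunits tested, 8 rose and 3 fell. Polr2a, the catalytic subunit, read 103, 51.5, 80.4 and 77.2 on the 1-cell arrays and 124, 124, 164 and 112 on the 2-cell arrays, a difference of 0.68 ± 0.21 (adjusted p = 0.00946). That call came from 1 of 2 probe sets, since the other differed by -0.54, and the mean of both gave 0.07 (adjusted p = 0.821); without the second 1-cell array it was 0.53 (adjusted p = 0.0559). Polr2h rose by 2.43 ± 0.21, Polr2b by 1.93 ± 0.20, and Polr2g, which with Polr2d forms a detachable stalk, fell by 2.06 ± 0.20.

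Initiation factors rose more often than they fell, with members in both directions. Of 14 TATA-binding protein and TFIID genes, 5 rose and 3 fell (5 and 2 when scaled to the hybridization controls). Of 19 other initiation factors, 10 rose (52.6%) and 3 fell (10 and 1 under that scaling). Tbp, the TATA-binding protein, read 356, 304, 377 and 324 on the 1-cell arrays and 381, 282, 325 and 388 on the 2-cell arrays, a difference of 0.01 ± 0.18 with no call (adjusted p = 0.975), and overlapping stages. Taf1d, a subunit of the polymerase I selectivity factor, rose by 4.48 ± 0.20, with 3 of 4 probe sets called and the lowest difference at 0.33. The TFIID subunits Taf7 and Taf13 fell, with differences of -1.40 ± 0.25 and -1.22 ± 0.18. Gtf2b, which positions polymerase II at the start site, read 3797, 4218, 4656 and 4839 on the 1-cell arrays and 958, 582, 503 and 562 on the 2-cell arrays and fell by 2.77 ± 0.21 (adjusted p = 7.82e-12), while the TFIIH helicase gene Ercc3 rose by 3.29 ± 0.21 and the TFIIF subunits Gtf2f1 and Gtf2f2 rose by 2.12 ± 0.20 and 1.76 ± 0.19. In the elongation group, 6 of 18 rose and 5 fell, or 1 when scaled to the hybridization controls. Ell2, an elongation factor that joins P-TEFb, read 10, 11, 10.9 and 16.4 on the 1-cell arrays and 419.6, 596, 793 and 584 on the 2-cell arrays and rose by 4.63 ± 0.24. Hexim1, the inhibitor of P-TEFb, rose by 4.20 ± 0.23 and its kinase Cdk9 by 2.35 ± 0.25. Mediator, the bridge between activators and polymerase II, had 6 of 28 subunits higher and 9 lower, or 4 under that scaling. Med22 fell by 2.65 ± 0.22 and Med29 rose by 3.89 ± 0.24.

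**Figure D4:**
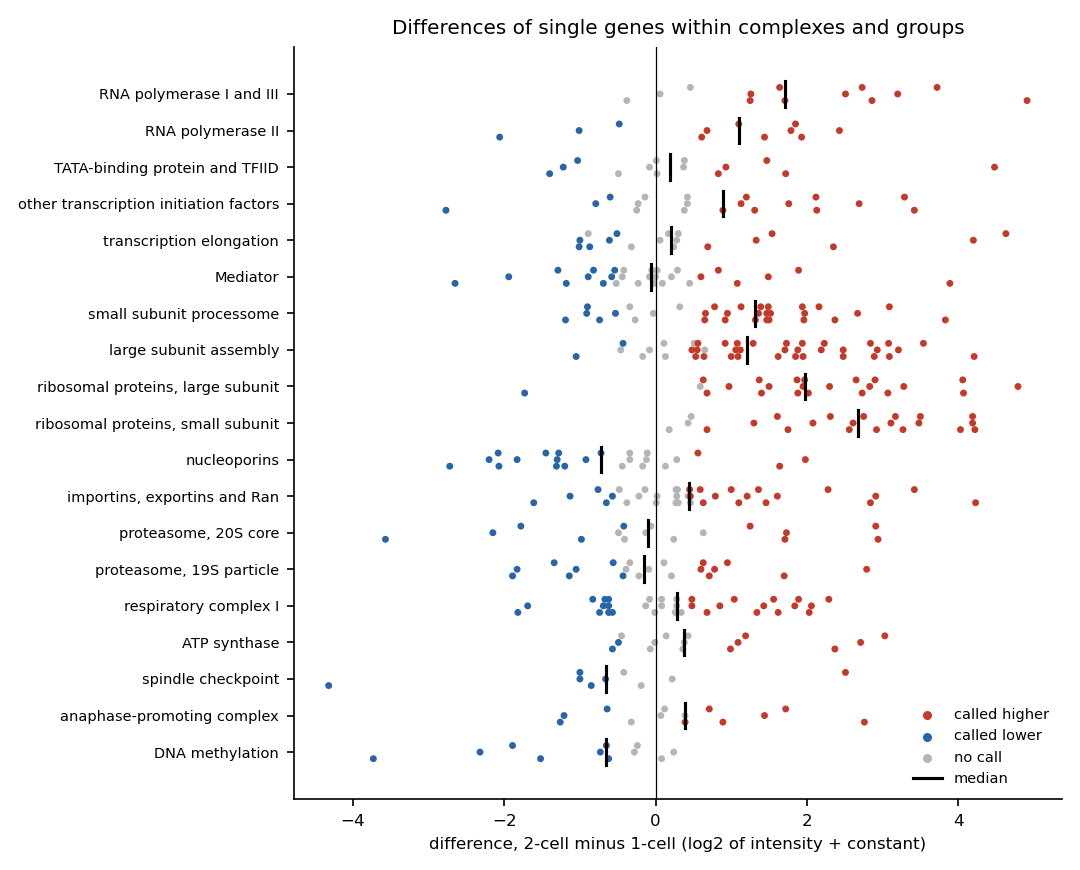
Difference of each tested gene, 2-cell minus 1-cell on the log2(intensity + 12.15) scale (horizontal), by complex or group; red points were called higher, blue lower, grey had no call, and black bars mark medians. RNA polymerases I and III, ribosome assembly factors and ribosomal proteins lie mostly to the right of 0, nucleoporins and DNA methylation genes mostly to the left, and the proteasome and Mediator spread to both sides.

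Genes of ribosome production were mostly higher. Of 87 tested biogenesis factors, which process ribosomal RNA and assemble subunits in the nucleolus, 64 rose (73.6%), 8 fell (2 when scaled to the hybridization controls) and the median difference was 1.12. Nop16, a large subunit assembly factor, read 14.9, 5.6, 13.2 and 1.9 on the 1-cell arrays and 404, 364, 314 and 385 on the 2-cell arrays, with all 1-cell values at the floor and no overlap, and rose by 4.21 ± 0.23 (adjusted p = 1.31e-14). Nhp2, of the box H/ACA particles that modify RNA, read 72.1, 70.8, 101 and 143 on the 1-cell arrays and 1579, 1518, 2480.1 and 2114 on the 2-cell arrays and rose by 4.17 ± 0.19. Rrp9, a U3 particle protein of the small subunit processome, read 21.2, 9.9, 11.8 and 13.9 on the 1-cell arrays and 286, 306, 414 and 450.3 on the 2-cell arrays and rose by 3.83 ± 0.29. Every 2-cell value of these genes exceeded every 1-cell value. The nucleolar methylase gene Fbl rose by 2.28 ± 0.21 and the polymerase I factor gene Ubtf by 1.36 ± 0.20. Exceptions were Bms1, a GTPase gene that fell by 1.19 ± 0.20, and Gnl2, which fell by 1.05 ± 0.21 on 1 of 3 probe sets and had a difference of -0.07 in the mean over them (adjusted p = 0.789). Npm1, an abundant nucleolar chaperone, had a difference of -0.29 ± 0.17 and no call.

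The cytosolic ribosomal proteins rose as a body: 40 of 45 tested were higher (88.9%), 1 was lower and the median was 2.31, with 41 of 45 not overlapping between stages against 41.1% of all genes. Small subunit members had a median of 2.68 and large subunit members of 1.97. Rps20 read 70.8, 104, 122 and 100.1 on the 1-cell arrays and 1848, 2000.3, 2531 and 1812 on the 2-cell arrays. The groups were far apart, the rise was 4.22 ± 0.20 (adjusted p = 5.59e-16), and 2 of 3 tested probe sets carried it. Other transcripts may share both of these, and the third, near the floor, differed by 0.26. Rpl41 read 15.6, 68, 113 and 199 on the 1-cell arrays and 1991, 1747, 3002 and 3273 on the 2-cell arrays. Its 1-cell values spread widely, all below the 2-cell values, and the rise was 4.79 ± 0.44. Rps25, a small subunit protein, read 45.1, 8.7, 32.2 and 5.4 on the 1-cell arrays and 429, 568, 572 and 686 on the 2-cell arrays and rose by 4.19 ± 0.29. Rpl37 was the exception, read 828, 872, 708 and 665 on the 1-cell arrays and 191, 203, 226 and 274 on the 2-cell arrays and fell by 1.73 ± 0.23. Its only tested probe set may be shared with other transcripts. The 18S control signal, higher on the 1-cell arrays as given above, moved opposite to these genes. Mean oocyte intensity was 1826 for Rps20 and 1946 for Rpl41, near their 2-cell means of 2048 and 2503, but 41.1 for Rps25 and 16.8 for Nop16. The list's median difference was -2.09 from oocyte to 1-cell, 2.31 from 1-cell to 2-cell and 2.0 from 2-cell to 8-cell, comparisons that share arrays.

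**Figure D5:**
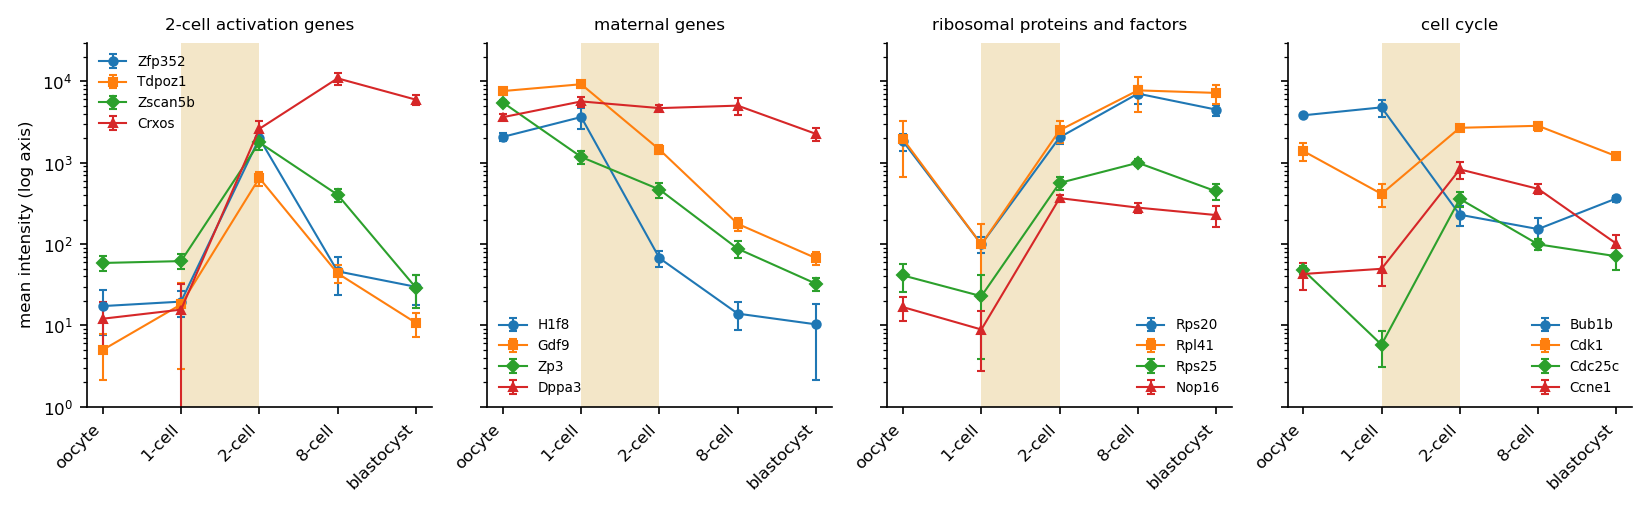
Mean intensity (log axis) at the 5 stages for genes of 4 groups, 4 arrays per point, with bars of 1 SD; a bar that reaches the bottom has an SD at or above its mean, and the shaded band marks the step from 1-cell to 2-cell. Zfp352 and Tdpoz1 peak at the 2-cell stage, Rps20 and Rpl41 dip at the 1-cell stage, and H1f8, Gdf9 and Zp3 decline from the 1-cell stage on, of which H1f8 and Gdf9 have lower means in the oocyte than at the 1-cell stage. Zp3 has its highest mean, 5489, in the oocyte and is already lower at the 1-cell stage.

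Translation factors and tRNA synthetases were mixed. Of 44 initiation, elongation and termination factors, 20 rose (45.5%) and 11 fell (25%). Eif3c, a core subunit of the eIF3 complex, read 20.8, 19, 122 and 187 on the 1-cell arrays and 1100.2, 1605, 2090.1 and 1922 on the 2-cell arrays. It rose by 4.51 ± 0.38 without overlap, although its 1-cell values spread widely. Of its 4 probe sets 3 were called higher, with differences from 0.52 to 4.51 over all of them. Eif3f rose by 3.14 ± 0.18 and Eif3h by 2.64 ± 0.20. Eif3e and Eif3i, subunits of that complex as well, fell by 1.41 ± 0.16 and 0.54 ± 0.16. Eif4e3, a cap-binding relative of eIF4E, read 5114, 5667, 5742 and 4759 on the 1-cell arrays and 613, 580.3, 711 and 759 on the 2-cell arrays and fell by 2.98 ± 0.17 (adjusted p = 2.11e-14), while Eif4e itself rose by 1.42 ± 0.18. Release factors also differed in direction. Gspt2 read 736, 751, 919 and 896 on the 1-cell arrays and 81.3, 81.5, 79.4 and 109 on the 2-cell arrays and fell by 3.07 ± 0.28, and Etf1, which recognises stop codons, rose by 3.65 ± 0.18. Of 20 cytosolic tRNA synthetase genes, 7 rose and 8 fell, with differences of 2.84 ± 0.20 for Hars and -1.89 ± 0.17 for Lars; Hars carried the call on 1 of 2 probe sets.

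Splicing factors also divided, with 29 of 79 higher (36.7%) and 25 lower (31.6%). Srsf1, a founding SR protein, read 189, 164, 199 and 138 on the 1-cell arrays and 2959.6, 2823, 2766 and 2781 on the 2-cell arrays, was tight within each stage and rose by 3.96 ± 0.16 (adjusted p = 1.67e-17). All 6 of its probe sets were called higher, with differences from 0.67 to 4.34. Snrpc, a protein of the U1 particle that recognises the 5′ splice site, rose by 3.82 ± 0.18. Mean oocyte intensity was 830.8 for Srsf1 and 691.2 for Snrpc, against 172.6 and 130.2 at the 1-cell stage. Clk1, a kinase of SR proteins, read 3085, 3121, 3113 and 2669.9 on the 1-cell arrays and 484, 537, 556 and 459 on the 2-cell arrays and fell by 2.53 ± 0.19. Prpf6, of the tri-snRNP, fell by 2.47 ± 0.16, with 2 of 3 probe sets called and the smallest difference at -0.31. SR and hnRNP proteins had 14 of 29 higher and 8 lower, and of the U1, U2 and Sm proteins, 7 of 22 were higher and 7 lower. When scaled to the hybridization controls, 4 of each group were lower.

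Nuclear pore proteins and transport carriers were counted apart. Among 23 nucleoporins, the building blocks of the pore, 12 fell (52.2%) and 3 rose (13%), with a median of -0.72. Nup37 read 3150.4, 3349.9, 2976 and 2446 on the 1-cell arrays and 679.9, 375, 359 and 404 on the 2-cell arrays; the first 2-cell array was the highest of its stage, the groups did not overlap and it fell by 2.72 ± 0.19 (adjusted p = 2.54e-12). Nup85 read 1248, 1513, 1614 and 1214 on the 1-cell arrays and 278, 267, 318 and 307 on the 2-cell arrays and fell by 2.20 ± 0.15. Members that rose were Nup133 (1.98 ± 0.17), Ranbp2 (1.64 ± 0.22) and Nup43 (0.56 ± 0.17). The 34 importins, exportins and Ran pathway genes had 16 higher (47.1%) and 5 lower, with a median of 0.44; 2 were lower when scaled to the hybridization controls. Kpna1, an importin alpha, read 28.3, 6.4, 16.7 and 47.8 on the 1-cell arrays and 532, 673, 766 and 548 on the 2-cell arrays and rose by 4.23 ± 0.25. All 5 of its probe sets were called higher, with differences from 2.25 to 4.98. Tnpo3, which imports SR proteins, rose by 3.42 ± 0.21 and Alyref, an mRNA export adaptor, by 2.91 ± 0.20. The difference between both subgroups was not tested.

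Chaperones and the proteasome changed subunit by subunit. Of 39 chaperone genes, 17 rose (43.6%) and 10 fell (25.6%). Cct6a, a subunit of the CCT ring that folds actin and tubulin, read 74.5, 98.7, 69.1 and 90.6 on the 1-cell arrays and 540.4, 743, 993 and 763 on the 2-cell arrays and rose by 3.00 ± 0.18, and Bag1, a cochaperone, rose by 2.92 ± 0.24. Hsp90aa1, the inducible Hsp90, read 10844, 8278, 7622 and 6550.1 on the 1-cell arrays and 1486, 1699, 1811 and 1772 on the 2-cell arrays and fell by 2.27 ± 0.19, whereas the Hsp70 genes Hspa1b and Hspa1a rose as given above. All 3 tested probe sets of Hsp90aa1 were called lower, with differences from -2.27 to -0.75. Of 42 proteasome genes, 14 rose and 14 fell (33.3% each), or 14 and 9 when scaled to the hybridization controls. Psma7, a subunit of the outer ring of the 20S core, read 1402, 1520.2, 1426 and 1285 on the 1-cell arrays and 122, 103, 110.2 and 94.6 on the 2-cell arrays, and its difference of -3.57 ± 0.16 (adjusted p = 1.17e-16) was among the deepest falls of all genes. Psmb5, a catalytic subunit, read 75.9, 73.7, 85.8 and 103 on the 1-cell arrays and 562, 578, 963 and 869.8 on the 2-cell arrays and rose by 2.94 ± 0.18. No array of one stage overlapped the other for either. Psmb1 rose by 2.91 ± 0.26, with 2 of 3 probe sets called and the lowest difference at -0.02. Psmd14, the deubiquitinase of the lid, rose by 2.79 ± 0.18, and Psmb3 fell by 2.15 ± 0.19. Oocyte means of Psmb5, Psmb1 and Psmd14 were 330.6, 775 and 968.8, against 84.5, 33.3 and 141.8 at the 1-cell stage. Their 2-cell means were 743.2, 310.3 and 1039.

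Oxidative phosphorylation genes rose in 34 of 74 cases (45.9%) and fell in 16 (21.6%), with a median of 0.37; 10 fell without the second 2-cell array. Uqcrfs1, the Rieske protein of complex III, read 27.8, 29.4, 81.8 and 41.9 on the 1-cell arrays and 397, 433, 619 and 508 on the 2-cell arrays and rose by 3.20 ± 0.21. Uqcrc2, a core subunit of that same complex, read 4108, 2808, 3091 and 2054 on the 1-cell arrays and 441, 352, 758 and 326 on the 2-cell arrays and fell by 2.69 ± 0.23 (adjusted p = 1.57e-10). Atp5j and Atp5o, subunits of the ATP synthase, rose by 3.03 ± 0.30 and 2.71 ± 0.25, and Sdha, the flavoprotein of complex II, fell by 2.01 ± 0.20 on 1 of 2 probe sets. Mean intensity in oocytes was 596 for Atp5j and 604 for Atp5o, against 46.0 and 28.8 at the 1-cell stage. The list's median was -1.53 from oocyte to 1-cell and 1.29 from 2-cell to 8-cell.

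Nucleotide synthesis genes rose in 17 of 34 cases (50%) and fell in 9, or 3 when scaled to the hybridization controls. Of 13 purine genes tested, 9 rose and 1 fell, with a median of 0.94, while the 21 pyrimidine and deoxynucleotide genes had 8 higher and 8 lower, or 7 and 3 under that scaling. Adsl, an enzyme of purine synthesis, read 4.2, 11.7, 18.3 and 8.8 on the 1-cell arrays and 254, 244, 189 and 319.9 on the 2-cell arrays and rose by 3.54 ± 0.22, and Ppat, the committed step, rose by 1.83 ± 0.26. Mthfd1, a folate enzyme, read 765, 700.5, 685 and 571 on the 1-cell arrays and 97.7, 130.4, 204 and 234 on the 2-cell arrays and fell by 2.02 ± 0.22, and Ctps, which makes CTP, fell by 1.39 ± 0.16. The difference between purine and pyrimidine genes was not tested.

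M phase genes fell more often than they rose. Of 67 tested M phase genes, 32 fell (47.8%) and 17 rose, with a median of -0.41; scaled to the hybridization controls, 18 fell. Cdc25c, the phosphatase that activates Cdk1, read 4.9, 2.3, 8.1 and 7.9 on the 1-cell arrays and 353, 396, 256 and 431 on the 2-cell arrays. The 1-cell values were at the floor and below the oocyte mean of 47.8, the groups were far apart, and the rise was 4.36 ± 0.22 (adjusted p = 2.65e-15). Cdk1 itself read 314, 324, 425 and 589.5 on the 1-cell arrays and 2643, 2909, 2596 and 2583 on the 2-cell arrays and rose by 2.71 ± 0.18. By contrast Cdc25a fell by 2.28 ± 0.21 and Ccnb2, the gene of a mitotic cyclin, fell by 1.78 ± 0.17. Of 9 checkpoint genes, 5 fell (2 under that scaling), led by Bub1b, and 1 rose. Ncapg, a condensin subunit, read 2849, 1727, 1499.9 and 1378 on the 1-cell arrays and 279.7, 395, 209 and 152 on the 2-cell arrays and fell by 2.81 ± 0.30 without overlap, whereas the condensin gene Ncapd2 rose by 2.06 ± 0.24. The anaphase-promoting complex had 6 of 13 members higher and 3 lower, with Cdc23 up by 2.76 ± 0.21 on 1 of 2 probe sets.

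DNA replication genes had 19 of 67 higher (28.4%) and 23 lower (34.3%), an order that turned to 18 and 16 when scaled to the hybridization controls. Ccne1, the G1/S cyclin E1, read 24.2, 55.2, 49.8 and 69.3 on the 1-cell arrays and 609.8, 726, 906 and 1069 on the 2-cell arrays and rose by 3.79 ± 0.24 (adjusted p = 3.19e-13); the groups did not overlap. Prim1, the catalytic primase subunit, rose by 2.24 ± 0.19 while its partner Prim2 fell by 1.71 ± 0.25. Replication protein A, the single-strand binding complex, also split, with differences of 1.91 ± 0.23 for Rpa2, -2.24 ± 0.16 for Rpa1 and -1.87 ± 0.21 for Rpa3. The second Rpa2 probe set rose by 0.69. Mean oocyte intensity was 681.5 for Prim1 and 511.5 for Rpa2, beside 2-cell means of 668.3 and 400.5, but 42.85 for Ccne1 beside 827.5. Timeless, a fork protection factor, read 1662, 1688, 1554 and 1449.9 on the 1-cell arrays and 237, 244, 186 and 206 on the 2-cell arrays and fell by 2.80 ± 0.16, and the clamp loader subunit Rfc3 fell by 2.37 ± 0.28. Among the MCM helicase genes, Mcm4 fell by 2.08 ± 0.17, and Mcm3 and Mcm6 rose by 0.56 ± 0.17 and 0.88 ± 0.15.

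Among chromatin regulators, 22 of 75 rose (29.3%) and 28 fell (37.3%), an order that turned to 20 and 16 when scaled to the hybridization controls. The DNA methylation group had 7 of 11 lower (4 under that scaling) and 0 higher by limma, also 0 at an unadjusted p under 0.05. Zfp57, which keeps methylation at imprinted genes, read 276, 637, 715 and 1018 on the 1-cell arrays and 44.4, 25, 43.7 and 25.8 on the 2-cell arrays. Its first 1-cell array was the lowest of the stage but well above every 2-cell value, and it fell by 3.73 ± 0.28 (adjusted p = 1.21e-11). Dnmt1, the maintenance methyltransferase, read 1807, 1939.8, 1859 and 1603 on the 1-cell arrays and 329, 339, 527 and 253 on the 2-cell arrays and fell by 2.32 ± 0.18; Dnmt3a fell by 1.89 ± 0.25 and Uhrf1 by 1.52 ± 0.18. Histone demethylases and acetylation enzymes included large rises. Kdm5b, which removes methyl groups from histone H3, read 132, 132, 160 and 105 on the 1-cell arrays and 1849.9, 1983, 2363 and 2236 on the 2-cell arrays and rose by 3.88 ± 0.15. Hdac1, a histone deacetylase, read 31, 47.1, 50.7 and 60.5 on the 1-cell arrays and 698, 773, 892 and 979 on the 2-cell arrays and rose by 3.85 ± 0.18, and the acetyltransferase gene Kat2b rose by 3.36 ± 0.25. The Polycomb genes Eed and Ezh2 fell, with differences of -1.75 ± 0.16 and -1.14 ± 0.19.

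Pluripotency genes were called higher in 15 of 29 tested cases and lower in 6, beside 3 of 15 trophectoderm and 1 of 10 primitive endoderm genes higher; the difference between these groups was not tested. Besides the Prame-like genes, Dppa4, a chromatin-linked pluripotency factor, read 53.5, 71.1, 94.3 and 99 on the 1-cell arrays and 1559.7, 1663, 1725 and 1525 on the 2-cell arrays and rose by 4.18 ± 0.18 (adjusted p = 4.88e-17). Klf4 rose by 2.93 ± 0.20, Zfp42 by 2.74 ± 0.20 and Nr5a2, an orphan nuclear receptor, by 1.10 ± 0.20. Pou5f1, which encodes Oct4, read 283, 394, 532 and 547 on the 1-cell arrays and 422, 295, 259.7 and 323 on the 2-cell arrays. The stages overlapped and the difference of -0.40 ± 0.19 was not called (adjusted p = 0.101), though it was without the first 1-cell array (-0.59; adjusted p = 0.0128) or the first 2-cell array (-0.53; adjusted p = 0.0347). Nanog had a difference of -0.10 ± 0.28. Lin28a, an RNA-binding protein that blocks let-7 processing, fell by 1.28 ± 0.21. Of the trophectoderm factors, Tead4 rose by 2.54 ± 0.24, Gata3 fell by 2.60 ± 0.33 from 138, 168, 151 and 93.7 to 37.2, 12.7, 2.6 and 6.9, and Cdx2 and Eomes had differences of 0.24 and 0.22 without a call. Gata6, an early primitive endoderm factor, fell by 0.61 ± 0.18.

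Stress, p53 and apoptosis genes had 21 of 48 higher (43.8%) and 6 lower (12.5%). In the p53 pathway 8 of 18 rose and 0 fell by limma, also 0 at an unadjusted p under 0.05. Sesn2, a stress-induced inhibitor of mTORC1 signalling, read 16, 26.6, 23 and 29.3 on the 1-cell arrays and 448, 568, 626 and 531 on the 2-cell arrays and rose by 3.96 ± 0.32 (adjusted p = 4.03e-11), and Gadd45b rose by 2.71 ± 0.26. Bid, a proapoptotic Bcl2 relative, read 3.3, 2.5, 1 and 2.6 on the 1-cell arrays and 92.1, 68.7, 128 and 102 on the 2-cell arrays and rose by 2.90 ± 0.29. The antiapoptotic gene Mcl1 rose by 2.73 ± 0.20, while Bcl2l10, abundant in eggs, fell by 1.90 ± 0.23 and the initiator caspase gene Casp8 by 2.21 ± 0.27. Mdm2, a classic p53 target, had a difference of -0.13 ± 0.19 without a call.

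Markers of other cell types that a preparation of embryos could carry were also read. Of 16 cumulus cell markers on the array, 4 lay at or under the filter level on all 8 arrays, 9 were tested and 1, Inhbb, rose; the summed intensity of the list was 486 to 734 on the 1-cell and 542 to 692 on the 2-cell arrays. Has2 and Ptx3, defining cumulus genes, did not pass the filter. Of 19 sperm and testis markers, 7 lay under the level on all 8 arrays, 12 were tested and 1, Ldhc, rose, or 2 without the fourth 1-cell or the first 2-cell array. The protamine gene Prm1 read 78.7, 51.5, 17.6 and 60.2 on the 1-cell arrays and 18.1, 21.3, 49.3 and 55.8 on the 2-cell arrays, and the list summed to 1198 to 1423 and 1375 to 1531. Without Ldhc the list summed to 1170 to 1413 on the 1-cell and 1122 to 1356 on the 2-cell arrays. Of 18 oviduct and blood markers, 6 lay under the level on all 8 arrays, 13 were tested and 3 rose; the sum was 438 to 713 on the 1-cell and 1527 to 2024 on the 2-cell arrays. Without those 3 genes, Epcam, Ovgp1 and Lyz2, it was 328 to 583 and 367 to 495. Epcam, an adhesion molecule of epithelia, read 6.6, 8.7, 4.8 and 6.6 on the 1-cell arrays and 662, 698, 622 and 786 on the 2-cell arrays and rose by 5.22 ± 0.20. Its mean was 4.6 in oocytes, 361.6 at the 8-cell stage and 3333 in blastocysts. Ovgp1, the oviduct glycoprotein that binds the egg coat, read 54, 57.1, 74.1 and 112 on the 1-cell arrays and 765, 614, 381 and 219.6 on the 2-cell arrays. The 2-cell arrays varied widely, none overlapped the 1-cell arrays, and the rise was 2.46 ± 0.67 (adjusted p = 0.00362). The only tested probe set of Ovgp1 may be shared with other transcripts. Lyz2, a lysozyme gene of macrophages, had a difference of 0.96 ± 0.34, and without 1-cell array 1 or 3 or 2-cell array 2 or 3 its adjusted p was 0.0578 to 0.109. The 8-cell mean of Ovgp1 was 865 with an SD of 1500, so the arrays of that stage differed widely. Ldhc, the lactate dehydrogenase of testis that oocytes also make, rose by 2.72 ± 0.30 and Inhbb, an activin subunit, by 1.57 ± 0.34 on 1 of 2 probe sets. The part of such cells in the results was not tested.

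Promoters and gene bodies of the called genes were described from RefSeq without a test. Of the 10251 tested genes, 8271 have at least 1 promoter window of 300 bases. The median observed over expected CpG ratio was 0.788 in windows of genes called higher, 0.757 in those called lower and 0.667 in those without a call. Among the 96 genes with rises over 4, 23.7% of the windows had a ratio under 0.5, against 15.8% for rises of 2 to 4 and 29.4% over all tested genes. The letters CCGGAAG, as bound by ETS factors, occurred in 22.1% of the windows of higher, 16.2% of lower and 12.7% of uncalled genes, and the palindromic NRF1 motif in 11.5%, 10.8% and 7.1%. TAATCC was in 6.68%, 5.64% and 5.39%, CCAAT in 37.8%, 37% and 36.7%, and the E-box CACGTG in 11.8%, 9.18% and 8.79%. TATAAA between 40 and 14 bases before the start was found in 1.17%, 1.07% and 2.64%. Genes called higher had a median span of 17.3 kb (quartiles 7.75 and 37.2), against 27.9 kb for genes called lower (12.3 and 63.8) and 20.9 kb for the others. Over the autosomes and the X chromosome the share called higher ran from 15.2% on chromosome 6 to 26.2% on chromosome 17.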

How the data were processed

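The series holds 20 Affymetrix MOE430A arrays of mouse embryos and oocytes, 4 per stage, and stages were taken from the titles. The deposited values are linear intensities per probe set. The software that made them, detection calls, strain and embryo numbers are stated neither in the labels nor in the table, and 0 value columns were left unmapped. Tested on the values themselves, the mean after trimming 2% at each end was nearly equal on all arrays, so a further array-wide shift cannot be seen. Probe sets ending in _x_at or _s_at, 14% of those tested, may be shared by other transcripts.

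Intensities were transformed as log2(intensity + 12.15), a constant set from the pooled median of 48.6. Probe sets above 33 (the pooled percentile 40) on at least 4 of the 20 arrays were tested with limma 3.58.1 in R 4.3.3. The fit was 1 model of 5 stages with 15 residual degrees of freedom, an intensity trend and Benjamini-Hochberg adjustment at 0.05. The script was tested on simulated data. A gene was represented by its tested probe set with the highest mean log2 value, named from the platform annotation: of 22626 probe sets, 20380 have 1 symbol, 691 several and 1555 none. Promoter windows and gene spans come from RefSeq tables on GRCm38.p6, summarised in Python 3.11.15 with pandas 2.3.3, and figures were drawn with matplotlib 3.10.9.

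Members and gene lists were chosen with earlier results of these data known. Genes were named by rule: the 12 largest rises and 12 largest falls with non-overlapping stages, up to 3 rises and 2 falls per list, and a fixed set; other list members were named after their values were seen. Alternatives were quantile normalization, median centring, scaling to the hybridization controls, other constants and filters, a fit on the 8 arrays, no trend, a replicate block, the mean of all probe sets of a gene, a 2-fold threshold and leaving out each array. Same-numbered arrays of both stages did not deviate together.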

Additional observations from a re-analysis of the deposited data

Results flagged for a closer look

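The 2 stages of 125 named genes and of 5 array measures (median intensity, percent above the filter level, both 3′ to 5′ ratios and 18S signal) make 260 groups of 4 arrays. In 10 of them, all of named genes, the highest or lowest array lay far from the other 3 for its range; chance marks about 1 in 20 such groups. At the 1-cell stage, Crxos read 39.9 on array 4 and 7.2 to 8 on the others, Ell2 read 16.4 on array 4 against 10 to 11, and the testis-type lactate dehydrogenase gene Ldhc read 27.8 on array 3 against 10.7 to 12.2. Pabpc1 read 189 on 1-cell array 1 against 116.1 to 120.8, and Clk1 read 2669.9 on 1-cell array 4 against 3085.4 to 3120.6. At the 2-cell stage, array 1 was high for Obox2 (2968.9 against 1400 to 1627.4) and Nup37 (679.9 against 358.9 to 404) and low for Farsa, a phenylalanine tRNA synthetase subunit gene (2.8 against 33.8 to 37.6). Array 4 was high for Gspt2 (108.9 against 79.4 to 81.5) and Prpf6 (302.8 against 222.7 to 227.4). For each of these genes every array of one stage still lay above every array of the other.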

How the results depend on the processing

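Of 125 named genes under 20 other settings, a call was lost 19 times, gained 2 times and a direction turned 7 times. The turns were Dppa3 (0.19 by quantile normalization) and Tbp (-0.02 by quantile normalization, -0.10 by centring, -0.05 to 0.10 leaving out 1 array), neither of them called. Scaling to the hybridization controls left 1864 probe sets called lower, with 11 mRNA storage and decay, 18 M phase and 16 chromatin genes lower. Asking for at least 2-fold left 1998 lower probe sets, 11 storage and decay, 19 M phase and 16 chromatin genes lower, and 13 translation, 9 proteasome and 13 stress genes higher. Filtering on the 8 arrays left 0 Y-linked genes higher by limma, since Eif2s3y was no longer tested. Sperm markers called higher came to 2 with the larger constant, the stricter filter, the fit on 8 arrays and the mean of probe sets, and to 1 to 2 leaving out 1 array. With the filter level at the percentile 60, 325 probe sets crossed it downward. Leaving out 1 array gave 3708 to 4004 probe sets higher and 3284 to 3633 lower. The replicate numbers did not pair the arrays (correlations of deviations -0.0276 to 0.0809), and a fit with the replicate number as a block called 7698 probe sets against 7693, 3998 higher and 3700 lower. The causes of these changes were not tested. The number of arrays limits precision, and intensities near the floor give no order.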

Other observations

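Of 956 tested probe sets without a gene symbol, 184 were higher and 131 lower at the 2-cell stage. Both shares lay below those over all probe sets tested, 23.2% and 21.5%. Medians of several lists over the neighbouring steps, which share arrays, are given side by side for oocyte to 1-cell, 1-cell to 2-cell and 2-cell to 8-cell. The 2-cell activation genes stood at 0.08, 2.55 and -2.70, maternal genes at 0.63, -1.19 and -2.06, and RNA polymerase I and III subunits at -0.80, 1.71 and -0.04. Proteasome genes stood at -0.69, -0.07 and 1.26 and ribosome biogenesis factors at -0.54, 1.12 and 0.30, beside 0.09, -0.07 and 0.04 over all genes tested.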
